A study of Mus musculus with 4 samples.

Results

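Proteasome subunit genes were followed across 4 arrays of mouse peritoneal macrophages exposed to 3 fatty acids. The members are all genes whose symbol begins with Psm, has a letter from a to g next, and ends in a number, with at least 1 array probe annotated to exactly 1 gene. This rule uses symbols and no measured value, and it gave 48 genes of the 19938 with such a probe. They comprise 8 genes of the alpha ring (Psma), 11 of the beta ring (Psmb), 6 regulatory ATPases (Psmc), 14 regulatory non-ATPase genes (Psmd), 4 activators (Psme), the inhibitor Psmf1 and 4 assembly chaperones (Psmg). A gene was kept for the counts below when the highest of its 4 values reached log2 7.09, the median of all values, which held for 46 members and 11174 genes in all. The members below it were Psma8, the testis form of an alpha subunit, and Psmb11, the thymus form of a beta subunit. Psma8 had log2 6.31 with palmitic acid, 6.23 with oleic acid, 6.31 with linoleic acid and 6.16 in the control, and Psmb11 lay between log2 6.34 and 6.59.

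The cells came from wild-type C57BL/6 mice 8 to 12 weeks old and had been elicited with 1 mL of 4% thioglycolate, injected 3 days before harvest, in every group. Non-adherent cells were washed off, and the rest were incubated for 6 h with 500 µM palmitic acid (16 carbons, 0 double bonds), 500 µM oleic acid (18 carbons, 1 double bond), 500 µM linoleic acid (18 carbons, 2 double bonds) or no fatty acid. The fatty acids were bound to bovine serum albumin (BSA). The control is labelled as BSA only, whereas the protocol describes its vehicle as ethanol and KOH. Each group is 1 array hybridised with RNA pooled from 3 samples, and the labels do not state whether those came from different mice.

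A single array stands for each group, so the variation between samples is unknown and no difference below carries a test, and "higher" and "lower" compare 2 arrays only. Values are log2, and a difference is the log2 value of the array named first minus that of the other. Over all probes, pairs of arrays correlated at r = 0.991 to 0.996. All 10 macrophage markers were kept, and their summed level was log2 15.950 with palmitic acid, 16.062 with oleic acid, 15.999 with linoleic acid and 15.998 in the control. Of 11 mesothelial and fibroblast markers 8 were kept, with summed levels of log2 12.08, 12.36 and 12.57 with palmitic, oleic and linoleic acid and 12.48 in the control. The 8 lay below the control with palmitic acid, by a median of -0.25, and the part of such cells in the results was not tested. Marker genes past 1.5-fold were the Fc receptor gene Fcgr1 (-0.66 with palmitic acid and 0.65 with oleic acid against the control), the fibroblast receptor genes Pdgfra (-0.86 with palmitic acid) and Pdgfrb (-1.29 with palmitic and -0.71 with oleic acid), and, between fatty acids only, the mast cell gene Kit. For palmitic minus oleic acid Fcgr1 differed by -1.31, Pdgfra by -0.80 and Pdgfrb by -0.59. For palmitic minus linoleic acid Fcgr1 differed by -0.83, Pdgfra by -0.93, Pdgfrb by -1.46 and Kit by -0.79, and for linoleic minus oleic acid Pdgfrb differed by 0.87 and Kit by 0.80. Of the markers of other cells, 1 of 4 for B cells, 1 of 7 for T and NK cells, 2 of 8 for granulocytes, 1 of 5 for mast cells and 2 of 5 for dendritic cells were kept. In RNA of a whole culture, fewer cells of a type and less RNA per cell cannot be told apart.

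The proteasome is the barrel-shaped protease that degrades ubiquitin-tagged proteins. Its core stacks alpha rings, which form the gate, around beta rings, which hold the catalytic sites, while the regulatory particle recognises, unfolds and feeds in the substrate. In immune cells interferon induces catalytic subunits that replace the constitutive ones, forming the immunoproteasome, whose peptides serve MHC class I presentation. Transcription of the subunit genes can be raised together by the factor NRF1, encoded by Nfe2l1, when proteasome capacity falls short.

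The comparison of palmitic acid with the control asked how these transcripts differed under the saturated fatty acid. All differences were small. None of the 46 members reached 1.5-fold either way, a size that 2.17% of all kept genes reached upward and 1.41% downward. At 1.2-fold, 3 members were higher (Psmd11, Psmd1 and Psme4) and 1 was lower (Psmb10). That is 6.52% and 2.17% of the members, both below the 12.1% and 8.72% of all kept genes. The direction was uneven among the parts of the complex. Regulatory particle genes lay mostly above the control, while the 3 immunoproteasome catalytic genes lay below it.

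Over the 46 members the median difference was 0.05 and 30 were above 0 and 16 below, beside a median of 0.000587 with 50.1% above and 49.9% below over all kept genes. Brightness bears on this: among the 5889 genes whose highest value was at or above the 75th percentile of all values, log2 8.94, the median was 0.04 and 58.5% were above 0, and 42 of the members belong to them. Of those bright genes 16.3% were 1.2-fold higher and 8.35% lower. When quantile normalisation was repeated, 25 members lay above 0.

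The non-ATPase genes of the regulatory particle had the highest median difference of the 6 classes, 0.15, with 11 of 14 above 0. Psmd11 codes for a lid subunit. It had log2 11.07 with palmitic acid, 10.54 with oleic acid, 10.74 with linoleic acid and 10.63 in the control. It was 1.36-fold higher with palmitic acid than in the control, a difference of 0.44 that was the largest upward among the members, and its palmitic acid value was the highest of the 4. Psmd1, the large scaffold subunit of the base, had log2 12.42 with palmitic acid, 11.98 with oleic acid, 12.19 with linoleic acid and 12.13 in the control, a difference of 0.29 or 1.23-fold. The lid gene Psmd12 had log2 10.60 with palmitic acid, 10.31 with oleic acid, 10.37 with linoleic acid and 10.37 in the control, a difference of 0.23. The palmitic acid array was the highest of the 4 for both.

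Other lid genes gave smaller differences in the same direction, 0.21 for Psmd8, 0.15 for Psmd7, 0.14 for Psmd6 and 0.13 for Psmd3. Psmd14, the lid deubiquitinase that removes ubiquitin chains from the substrate, had log2 12.05 with palmitic acid, 11.74 with oleic acid, 11.80 with linoleic acid and 11.94 in the control. Its difference from the control was 0.10, so that the spread of this gene came more from the low oleic and linoleic acid arrays. The base scaffold Psmd2 differed by 0.16, with 0.12 and 0.19 from its 2 probes, and the ubiquitin receptor Psmd4 by 0.16. Psmd5, which acts as a chaperone of base assembly, differed by 0.17, whereas the base chaperones Psmd9 and Psmd10 lay below the control at -0.10 and -0.07. The lid gene Psmd13 lay close to it at -0.02. The 3 members below 0 were 2 chaperones and 1 lid subunit. The median was 0.16 when arrays were centred and 0.11 when quantile normalisation was repeated, with 11 of 14 above 0 in both.

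The ATPase ring, which unfolds the substrate, had a median difference of 0.12 with 5 of 6 above 0. Psmc2 had log2 9.57 with palmitic acid, 9.22 with oleic acid, 9.32 with linoleic acid and 9.39 in the control, a difference of 0.18. Psmc4 differed by 0.13, Psmc1 by 0.12, Psmc6 by 0.11 and Psmc5 by 0.0029, and Psmc3 by -0.07. Psmc5 turned to the other side of 0 under repeated quantile normalisation.

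Among the activators, which cap the core in place of the regulatory particle, only Psme4 passed 1.2-fold. Psme4, a large single-chain activator, had log2 11.24 with palmitic acid, 10.91 with oleic acid, 11.13 with linoleic acid and 10.95 in the control, a difference of 0.29 or 1.22-fold. Repeating quantile normalisation brought it to 0.25, short of 1.2-fold. Its linoleic acid value also lay above the control, by 0.17. Psme1 and Psme2, which form the interferon-induced activator, differed by -0.04 and -0.06, and the nuclear activator Psme3 by -0.02. One probe annotated to Psme2 together with Psme2b was not used.

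The promoters of the 3 genes past 1.2-fold upward are shown because these genes had the largest upward differences with palmitic acid. Each is the 250 bases before the annotated start of transcription, 5′ to 3′ on the gene's strand, from RefSeq on GRCm38.p6. Psmd11 lies at chr11:80428365-80428614 on the plus strand, Psmd1 at chr1:86064369-86064618 on the plus strand and Psme4 at chr11:30771525-30771774 on the plus strand. Capitals mark any match, on either strand, to TGANNNNGC (the core of the antioxidant response element, which NRF1 and NRF2 bind), CCGGAAG (an ETS family core), GAAA followed by 2 free bases and GAAA again (an interferon-stimulated response element) or TTCNNNGAA (a STAT site).
Psmd11: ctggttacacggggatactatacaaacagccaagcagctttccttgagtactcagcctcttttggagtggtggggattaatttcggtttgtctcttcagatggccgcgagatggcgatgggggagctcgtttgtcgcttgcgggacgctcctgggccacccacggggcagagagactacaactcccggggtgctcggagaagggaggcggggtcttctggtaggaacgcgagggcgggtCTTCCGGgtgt
Psmd1: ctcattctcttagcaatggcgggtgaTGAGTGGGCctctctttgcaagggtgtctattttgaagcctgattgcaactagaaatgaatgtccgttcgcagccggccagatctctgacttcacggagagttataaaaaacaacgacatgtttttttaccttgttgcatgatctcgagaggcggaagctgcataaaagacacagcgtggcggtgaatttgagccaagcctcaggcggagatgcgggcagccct
Psme4: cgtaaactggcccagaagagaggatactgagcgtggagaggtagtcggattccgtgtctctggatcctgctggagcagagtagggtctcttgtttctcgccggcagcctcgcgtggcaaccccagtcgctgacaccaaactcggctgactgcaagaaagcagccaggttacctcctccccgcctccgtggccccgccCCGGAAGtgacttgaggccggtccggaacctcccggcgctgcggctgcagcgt
Psmd11 and Psme4 each hold 1 match to the ETS core, and Psmd1 holds 1 match to the antioxidant response core. No interferon-type match was found in these windows. A match is a description of letters and not of binding.

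**Figure D1:**
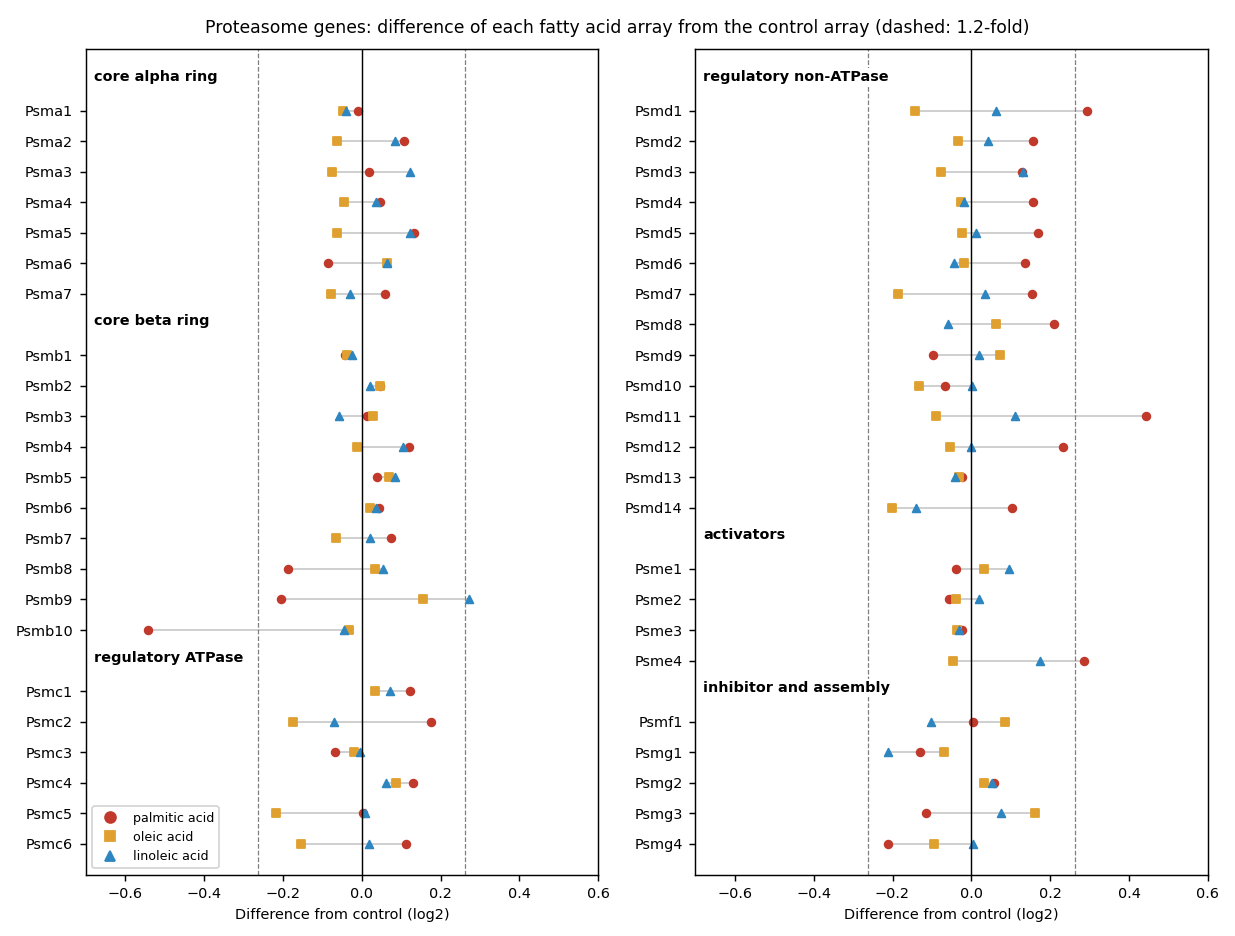
Difference of each fatty acid array from the control array (log2, horizontal axis) for every kept proteasome gene (rows, grouped by class), 1 point per gene and fatty acid, from 1 array per group. Dashed lines mark 1.2-fold. Psmd11 (0.44) and Psmb10 (-0.54) are the farthest points on either side, both with palmitic acid. Scaling turned the side of 0 for Psma3, Psma7, Psmc5, Psmf1 and Psmg2 with palmitic acid, and for some further points near 0.

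The core rings without the immunoproteasome genes stayed close to the control with palmitic acid. Their 14 kept genes had a median of 0.04 and a range of -0.09 to 0.13. The alpha ring had a median of 0.05, which became -0.000527 under repeated quantile normalisation, with 5 of 7 genes above 0 as deposited. Psma5 differed by 0.13 as the mean of 2 probes, which gave 0.05 and 0.22, and Psma2 by 0.11. Psma6 lay at the other end with -0.09 and was the only kept alpha gene whose lowest value was that with palmitic acid. Of the remaining beta genes, Psmb4 differed by 0.12, Psmb2 by 0.05, Psmb3 by 0.01 and Psmb1 by -0.04. All are structural subunits without catalytic activity.

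The catalytic beta subunits come in pairs, in which an interferon-inducible form replaces a constitutive one, Psmb8 for Psmb5, Psmb9 for Psmb6 and Psmb10 for Psmb7. Psmb10 had log2 11.47 with palmitic acid, 11.98 with oleic acid, 11.97 with linoleic acid and 12.01 in the control. It was 1.46-fold lower with palmitic acid than in the control, a difference of -0.54, while the other 3 arrays differed by at most 0.04. The difference was -0.53 with arrays centred and -0.56 with quantile normalisation repeated. Psmb10 has 1 probe and lies far above the cut-off for kept genes, so filters and the choice of probe could not change it. Psmb9 had log2 10.63 with palmitic acid, 10.99 with oleic acid, 11.10 with linoleic acid and 10.83 in the control, a difference of -0.20 with palmitic acid. Psmb8 had log2 10.87 with palmitic acid, 11.09 with oleic acid, 11.11 with linoleic acid and 11.05 in the control, a difference of -0.19. All 3 were lowest in the palmitic acid array, against 38.1% of all kept genes. Neither Psmb8 nor Psmb9 reached 1.2-fold against the control.

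The constitutive partners did not share that direction. Psmb5 had log2 12.98 with palmitic acid, 13.01 with oleic acid, 13.02 with linoleic acid and 12.94 in the control. Psmb6 had log2 12.40, 12.38 and 12.40 with palmitic, oleic and linoleic acid and 12.36 in the control. Psmb7 had log2 11.03, 10.89 and 10.98 in the same order of fatty acids and 10.96 in the control. Their differences with palmitic acid were 0.04, 0.04 and 0.07. Taking the constitutive difference from that of its inducible partner gave -0.22 for Psmb8 less Psmb5, -0.25 for Psmb9 less Psmb6 and -0.61 for Psmb10 less Psmb7 with palmitic acid. The corresponding contrasts were -0.04, 0.14 and 0.03 with oleic acid, and -0.03, 0.24 and -0.07 with linoleic acid. With palmitic acid the contrast was below 0 for all 3 pairs, against 1 of 3 with oleic acid and 2 of 3 with linoleic acid.

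The promoters of the 3 inducible genes are printed because these genes had the lowest differences of the catalytic class, and because interferon-type elements are known from their regulation. Psmb10 lies at chr8:105938393-105938642 on the minus strand, Psmb9 at chr17:34187331-34187580 on the minus strand and Psmb8 at chr17:34197945-34198194 on the plus strand, with the same source, window and capitals as above. In the gene order of chromosome 17, Psmb9 is followed by Tap1, Psmb8 and Tap2, where Tap1 and Tap2 code for the peptide transporter of class I presentation.
Psmb10: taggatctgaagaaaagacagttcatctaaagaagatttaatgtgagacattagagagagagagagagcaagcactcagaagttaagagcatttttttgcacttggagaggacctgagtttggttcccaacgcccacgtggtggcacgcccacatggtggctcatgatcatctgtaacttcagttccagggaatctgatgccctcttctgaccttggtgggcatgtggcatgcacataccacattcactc
Psmb9: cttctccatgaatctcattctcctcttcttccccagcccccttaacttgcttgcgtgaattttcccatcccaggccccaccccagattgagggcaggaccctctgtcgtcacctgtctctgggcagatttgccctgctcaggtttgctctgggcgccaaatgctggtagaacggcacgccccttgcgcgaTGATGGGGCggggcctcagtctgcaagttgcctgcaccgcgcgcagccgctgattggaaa
Psmb8: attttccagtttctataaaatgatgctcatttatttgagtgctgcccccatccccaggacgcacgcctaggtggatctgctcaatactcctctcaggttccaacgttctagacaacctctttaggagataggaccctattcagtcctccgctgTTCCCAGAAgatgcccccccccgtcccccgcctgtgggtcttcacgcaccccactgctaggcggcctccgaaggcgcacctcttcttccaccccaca
Psmb8 holds 1 match to the STAT site, Psmb9 holds 1 match to the antioxidant response core, and Psmb10 holds none of the 4 motifs within this window. The neighbours Tap1 and Tap2 differed by 0.02 and -0.11 with palmitic acid, less than Psmb9 and Psmb8 beside them.

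**Figure D2:**
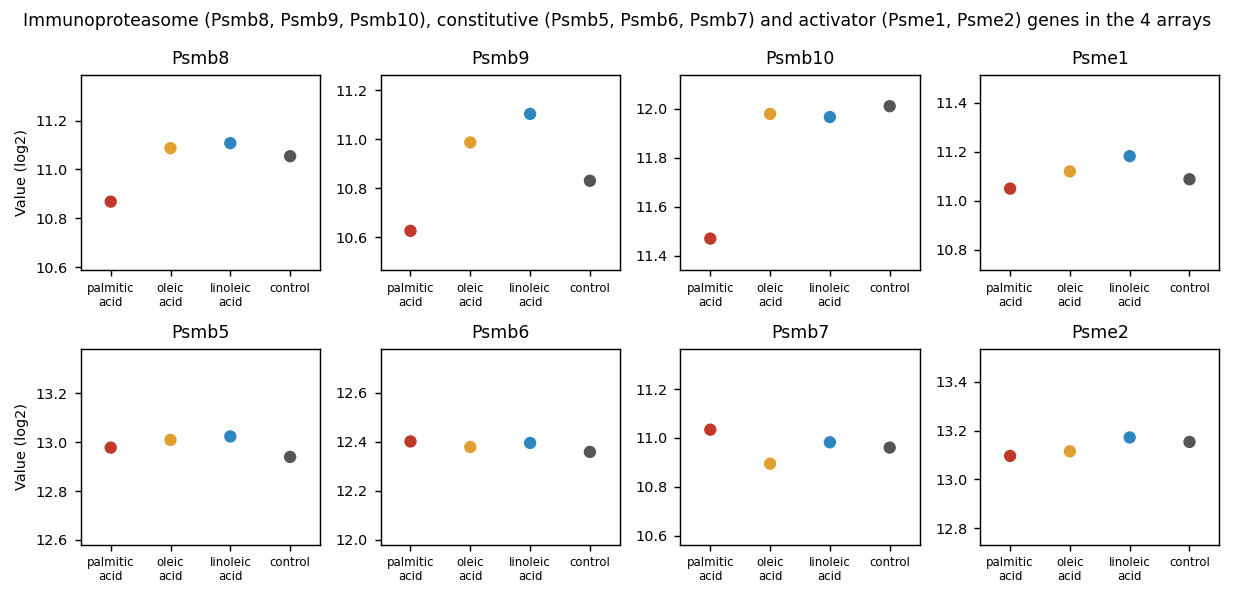
Log2 value (vertical axis, the same span in each panel but a different offset) of the inducible genes Psmb8, Psmb9 and Psmb10, their constitutive partners Psmb5, Psmb6 and Psmb7, and the activator genes Psme1 and Psme2, 1 point for each of the 4 arrays. Psmb10 is at 11.47 with palmitic acid and between 11.97 and 12.01 in the other arrays.

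The inhibitor and the assembly chaperones had a median of -0.11 with palmitic acid. Psmg4 had log2 9.26 with palmitic acid, 9.37 with oleic acid, 9.47 with linoleic acid and 9.47 in the control, a difference of -0.21 and the second lowest among the members. Psmg1 differed by -0.13, Psmg2 by 0.06 and the proteasome inhibitor Psmf1 by 0.0029. Psmg3 differed by -0.11, but it was dim, at log2 6.87 with palmitic acid, 7.15 with oleic acid, 7.06 with linoleic acid and 6.98 in the control, and was kept through its oleic acid array alone. Of the Psmg chaperones, Psmg1, Psmg4 and the dim Psmg3 lay on the other side of 0 from most regulatory particle genes, and Psmg2 did not. Pomp, a maturation factor of the core outside the member rule, lay above the control at 0.15. Psmf1 and Psmg2 turned sign when quantile normalisation was repeated.

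Oleic acid against the control gave smaller differences. None of the 46 members passed 1.5-fold, against 0.376% of all kept genes upward and 0.34% downward. None passed 1.2-fold either, against 4.02% upward and 2.53% downward. The members tended below the control, with a median of -0.04, 15 of 46 above 0 and 31 below, beside a median of 0.01 with 55.3% above and 44.6% below over all kept genes. The non-ATPase genes had 12 of 14 below 0 (median -0.04), the alpha ring 6 of 7 (median -0.06) and the ATPases 4 of 6 (median -0.09). The lowest were Psmc5 at -0.22, with log2 8.88 with oleic acid and 9.10 in the control, and Psmd14 at -0.20. The highest were Psmb9 at 0.16 and Psmg3 at 0.16, a dim gene kept only through this array, so that its place is no result. The inducible catalytic genes did not lie below the control as a group here, at 0.03 for Psmb8, 0.16 for Psmb9 and -0.03 for Psmb10.

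Linoleic acid and the control were the pair of arrays with the fewest large differences over all kept genes in the series. None of the members passed 1.5-fold, against 0.0358% of all kept genes in each direction. At 1.2-fold Psmb9 alone was higher, 1 of 46 members against 3.23% of all kept genes, and none was lower, against 1.09%. The difference of Psmb9 was 0.27, and it was under 1.2-fold when arrays were centred or quantile normalised again. The median over members was 0.02 with 30 of 46 above 0, beside 0.04 and 65.2% over all kept genes, and it turned to -0.01 under both other scalings, so no direction is given. Behind Psmb9 came Psme4 at 0.17. The lowest were Psmg1 at -0.21, with log2 8.00 with linoleic acid and 8.21 in the control, and Psmd14 at -0.14. The 3 comparisons above share the control array, so they are set side by side only.

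The comparisons between fatty acids ask whether chain length and saturation went with different levels. At the same dose and time, 3 pairs of compounds were compared, with no test possible. Palmitic acid differs from both others in having a shorter chain and no double bond, and linoleic acid has a double bond more than oleic acid. No member passed 1.5-fold in any of the pairs. The background at that size was 1.82% upward and 1.66% downward for palmitic minus oleic acid, 1.58% and 2.01% for palmitic minus linoleic acid, and 0.707% and 0.34% for linoleic minus oleic acid.

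Palmitic acid against oleic acid gave the most members past 1.2-fold, 8 higher and 3 lower, or 17.4% and 6.52%, beside 13% and 11.4% of all kept genes. Among the 5889 bright genes, which include 42 of the members, 18.3% were higher and 11.1% lower, so the members' upward share was near that of genes as bright. The 8 were the lid genes Psmd11 (0.53, 1.45-fold), Psmd7 (0.34), Psmd14 (0.30) and Psmd12 (0.29), the base gene Psmd1 (0.44), the ATPases Psmc2 (0.35) and Psmc6 (0.27), and Psme4 (0.33). The 3 were Psmb10 (-0.51), Psmb9 (-0.36) and the dim Psmg3 (-0.28). Psmg3 was kept through its oleic acid array alone, so its place among the 3 is no result. Of the 42 bright members 2 were lower, or 4.76%. Psmc6 was short of 1.2-fold with arrays centred (0.256) and with quantile normalisation repeated (0.219), and Psmd12 in the second of these only (0.234). The median was 0.08 with 30 of 46 above 0 and 16 below, beside -0.02 with 45.9% above and 54.1% below over all kept genes, and 0.03 with 55% above 0 among the bright ones. Among the 20 regulatory particle genes 18 were above 0, with a median of 0.19. The non-ATPase genes had 13 of 14 above 0 and a median of 0.19, which was 0.14 under repeated quantile normalisation. Psmd13, above 0 in both counts as deposited, lay at -0.0039 with arrays centred and -0.06 with quantile normalisation repeated.

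Palmitic acid against linoleic acid gave 2 members higher and 2 lower by 1.2-fold, beside 8.41% and 10.8% of all kept genes. Psmd11 (0.33) and Psmd8 (0.27) were higher, and Psmb10 (-0.50) and Psmb9 (-0.48) were lower. With arrays centred the split was 6 higher to 2 lower, and with quantile normalisation repeated it was 1 to 2, with Psmd8 at 0.25. The median over members was 0.02 with 30 of 46 above 0 and 16 below, beside -0.03 with 42.5% above and 57.5% below over all kept genes. For the non-ATPase genes it was 0.17, with 11 of 14 above 0. Psmb8 differed by -0.24, and the inducible catalytic genes had a median of -0.48, which is the value of Psmb9. This comparison and that of oleic acid with the control share no array. All comparisons with palmitic acid use the same palmitic acid array, so their differences are not independent.

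Linoleic acid against oleic acid gave no member past 1.2-fold, where 7.14% of all kept genes were higher and 4.16% lower. The median was 0.04 with 35 of 46 above 0 and 11 below, beside 0.02 with 55.3% above and 44.7% below over all kept genes. With arrays centred the members' median was -0.01 with 21 above 0, so its direction depends on the scaling. Psmc5 (0.23) and Psme4 (0.22) had the highest differences, and Psmf1 (-0.19) and Psmg1 (-0.14) the lowest.

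**Figure D3:**
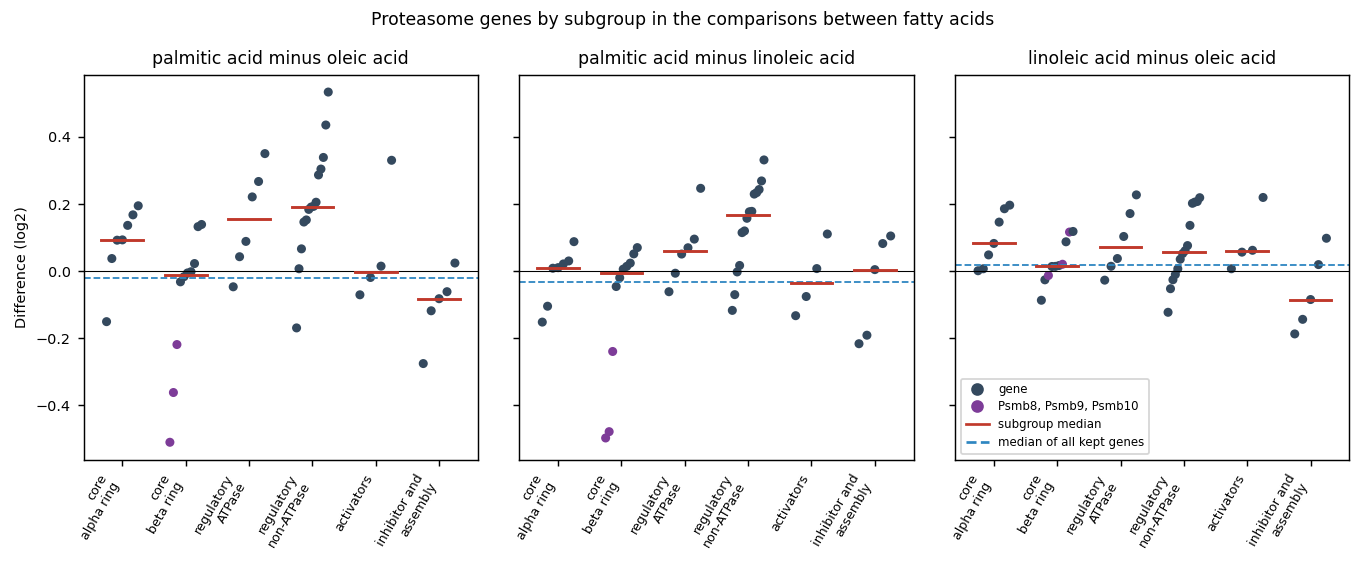
Difference in log2 value (vertical axis) of each kept proteasome gene by class (horizontal axis) for palmitic minus oleic acid, palmitic minus linoleic acid and linoleic minus oleic acid, 1 point per gene. The non-ATPase genes have medians of 0.19, 0.17 and 0.06 in that order, and the lowest points, down to -0.51, are Psmb10 and Psmb9 in the panels with palmitic acid. The direction for the beta ring in the palmitic minus linoleic acid and linoleic minus oleic acid panels, and for the activators and the inhibitor and assembly genes in the palmitic minus linoleic acid panel, flipped with scaling.

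The order of the 4 arrays describes the same data without a threshold. Palmitic acid was the highest array for 23 of the 46 members and oleic acid the lowest for 23, where palmitic acid was highest in 30.5% and oleic acid lowest in 23.9% of all kept genes. Among the bright genes these shares were 39% and 29.2%. Oleic acid was highest for 5 members, linoleic acid for 11 and the control for 7, against 26.9%, 29.1% and 13.5% of all kept genes. Among the non-ATPase genes palmitic acid was highest in 10 of 14 and oleic acid lowest in 10 of 14. Of the 6 ATPases palmitic acid was highest in 4, and oleic acid was lowest in 3. In the alpha ring oleic acid was lowest in 6 of 7. These ranks are those of the deposited values, and scaling changed some of them. With arrays centred, linoleic acid in place of oleic acid was lowest for Psmd4, Psmd5 and Psmd12, and palmitic acid became highest for Psmd3. Under both scalings linoleic acid was lowest for Psma1 and Psma7. The range over the 4 arrays went from 0.04 for Psme3, the steadiest member, to 0.54 for Psmb10.

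A set of 9 motifs was searched on both strands in the promoters of 40 of the 48 genes, which have 43 promoters in the RefSeq table. The ETS core CCGGAAG was found in 30.2% of the 43, at 12 genes, against 6.91% of all 32851 promoters. It was present at Psmd2, Psmd4, Psmd6, Psmd11, Psmd12, Psmc1, Psmc2 and Psmc6 of the regulatory particle, and at Psma6, Psme3, Psme4 and Psmg1. The antioxidant response core TGANNNNGC was found in 39.5%, at 16 genes, against 35.2%, and its stricter form TGACNNNGC, whose matches are all matches of the core too, in 11.6% against 10.2%. The CCAAT box CCAAT was found in 32.6% against 33.8%, the interferon-stimulated element in 6.98% against 2.98%, and the STAT site TTCNNNGAA in 4.65% against 7.02%. The E-box CACGTG was found in 9.3% against 6.02%, the TATA box TATAAA in 9.3% against 12.4%, and the element TGACGTCA in 0% against 1.55%. Base composition was not matched in this count, and the ETS core was singled out after the counts were seen.

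Genes that work with the proteasome were listed by role, and 121 of 136 listed genes had a probe of exactly 1 gene. The proteasome-associated proteins without a Psm symbol had 12 kept genes and a median of 0.15 with palmitic acid. Of these, 8 lay above 0 and 4 below, where 50.1% of all kept genes lay above. Past 1.5-fold, 1 was higher and none lower, beside 2.17% and 1.41% of all kept genes. Zfand2a, an arsenite-inducible factor that binds the proteasome, had log2 12.91 with palmitic acid, 12.27 with oleic acid, 12.25 with linoleic acid and 12.19 in the control, a difference of 0.72. Zfand5, an activator of degradation, differed by 0.49, the proteasome adaptor Ecpas by 0.38, and Akirin2, which carries proteasomes into the nucleus, by 0.33. Pomp, the maturation factor of the core, differed by 0.15 and the deubiquitinase Usp14 by 0.14, whereas Zfand2b differed by -0.26. The list's medians were -0.01 with oleic acid, which flipped sign with scaling, and 0.06 with linoleic acid.

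The shuttle and VCP list holds factors that extract ubiquitinated proteins or deliver them to the proteasome, and also the autophagy receptors Nbr1 and Sqstm1. It had 12 kept genes, a median of 0.23 with palmitic acid and 11 above 0. The autophagy receptor Nbr1 was past 1.5-fold at 0.75, with log2 10.13 with palmitic acid, 9.60 with oleic acid, 9.41 with linoleic acid and 9.38 in the control. Ufd1 differed by 0.41, the ubiquilin gene Ubqln2 by 0.35, the receptor Sqstm1 by 0.29 and Vcp itself by 0.22. Over all kept genes 50.1% were above 0 in that comparison, and 2.17% were past 1.5-fold upward. As deposited, all 12 were above 0 for palmitic minus oleic acid and for palmitic minus linoleic acid, with medians of 0.29 and 0.20. The shares above 0 were 45.9% and 42.5% over all kept genes, and 55% and 49.9% among the bright genes. For palmitic minus oleic acid Faf1 and Ubqln4 turned below 0 under both scalings. They lay at -0.0073 and -0.00083 with arrays centred, and at -0.04 and -0.05 with quantile normalisation repeated. The medians with oleic and linoleic acid against the control were 0.0015 and 0.03, and that of linoleic acid flipped with scaling.

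Genes that regulate proteasome transcription lay on both sides of 0. The list had 9 kept genes and a median of -0.02 with palmitic acid, 4 above 0 and 5 below. Nfe2l1, which codes for NRF1, had log2 11.43 with palmitic acid, 11.37 with oleic acid, 11.54 with linoleic acid and 11.45 in the control, a difference of -0.02. Nfe2l2, which codes for NRF2, had log2 12.34 with palmitic acid, 12.65 with oleic acid, 12.71 with linoleic acid and 12.78 in the control, a difference of -0.44. The ubiquitin ligase Syvn1 of the endoplasmic reticulum differed by 0.65 and was past 1.5-fold, where 2.17% of all kept genes were past it upward.

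The NRF2 antioxidant genes had 10 kept genes and the highest median of the lists with palmitic acid, 0.32. In that comparison 3 were past 1.5-fold, Srxn1 (0.74), Gclm (0.72) and Hmox1 (0.63), where 2.17% of all kept genes were past it. Of the 10, 8 lay above 0 and 2 below, Slc7a11 (-0.21) and Gsr (-0.14). Gsr also lay below 0 for palmitic minus oleic acid (-0.20). Both did for palmitic minus linoleic acid, at -0.15 for Slc7a11 and -0.22 for Gsr. The list's median was -0.20 with oleic acid and 0.05 with linoleic acid against the control. Between palmitic and oleic acid it was 0.56, with Gclm (1.25), Srxn1 (0.89), Hmox1 (0.79), Gclc (0.71) and Txnrd1 (0.66) past 1.5-fold, against 1.82% of all kept genes. Between palmitic and linoleic acid Gclm (0.67) and Srxn1 (0.60) passed it, and between linoleic and oleic acid Gclm (0.59), which was short of it with arrays centred (0.53) or quantile normalised again (0.55). Of the associated and shuttle lists, Zfand2a (0.64) and Zfand5 (0.63) passed 1.5-fold between palmitic and oleic acid, and Nbr1 (0.72) and Zfand2a (0.66) between palmitic and linoleic acid. Over all kept genes 1.58% passed it upward for palmitic minus linoleic acid and 0.707% for linoleic minus oleic acid.

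The class I antigen processing list, fed by the immunoproteasome, had 9 kept genes and a median of 0.01 with palmitic acid. None of the 9 was past 1.2-fold, beside 12.1% of all kept genes upward and 8.72% downward. With linoleic acid the list's median was 0.14, beside 0.04 over all kept genes. There 5 of the 9 lay above 0 and 4 below, where 65.2% of all kept genes lay above. They ranged from Nlrc5, the transactivator of class I genes, at 0.34 to the chaperone Pdia3 at -0.21. Tap2 differed by 0.19, Tap1 by 0.16 and B2m, the light chain of class I, by -0.05. For palmitic minus linoleic acid 4 of the 9 lay above 0 and 5 below. There 2 were at least 1.2-fold lower, Tap2 (-0.30) and Nlrc5 (-0.29), and 0 were higher. Over all kept genes 10.8% were lower and 8.41% higher. Both genes were short of 1.2-fold with arrays centred, at -0.25 and -0.25. The interferon signalling list had 7 kept genes and medians of 0.04, 0.06 and 0.07 with palmitic, oleic and linoleic acid. For palmitic minus linoleic acid its median was -0.08, with 1 gene above 0 and 6 below. There 57.5% of all kept genes and 50.1% of the bright ones lay below 0. Irf8 and Irf9 turned above 0 in that comparison with arrays centred. Irf1, a factor that drives immunoproteasome genes, differed by 0.13 with palmitic acid, and the interferon gamma receptor gene Ifngr1 by -0.28. The ubiquitin-activating enzyme gene Uba6 differed by 0.09. Adrm1 and Ddi2 are not analysed here.

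**Figure D4:**
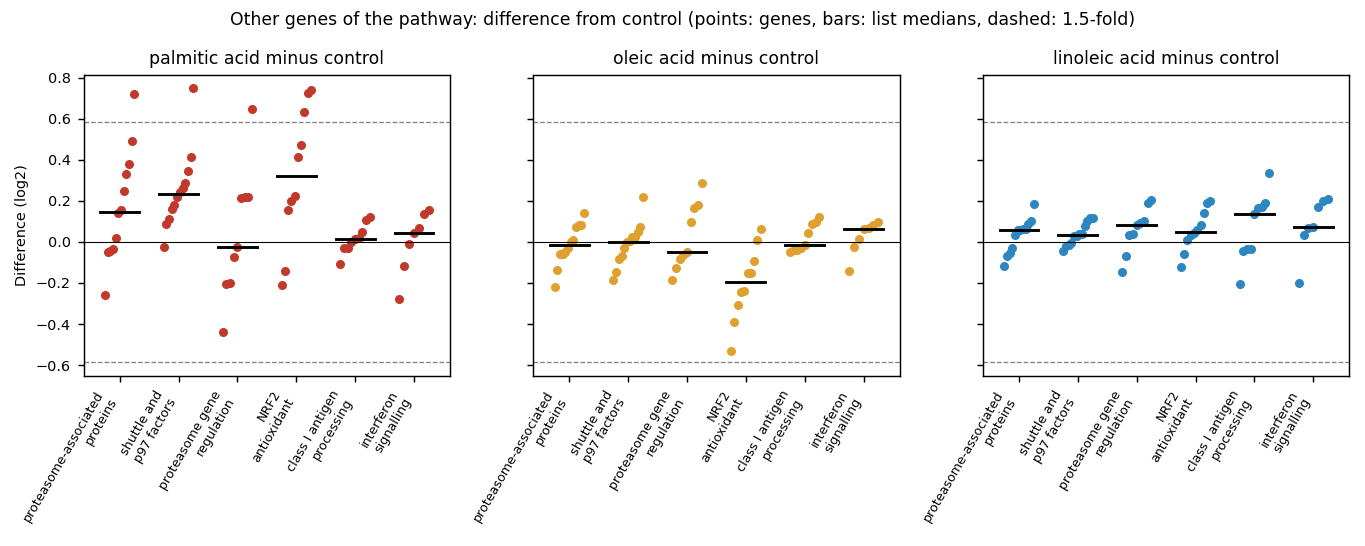
Difference from the control array (log2, vertical axis) of the kept genes of each pathway list (horizontal axis) with palmitic, oleic and linoleic acid, 1 point per gene, a bar at each list's median and dashed lines at 1.5-fold. With palmitic acid the medians were 0.32 for the NRF2 list, 0.23 for the shuttle list and 0.15 for the associated proteins. Medians near 0 with oleic or linoleic acid, among them those of the associated proteins, the shuttle factors and antigen processing, changed side with scaling.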

How the data were processed

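The series holds 4 Affymetrix arrays, 1 per group, of 100 ng total RNA with an RNA integrity number above 8.0. RMA (background correction, quantile normalisation and probe summary) was used, per the submitters' processing notes, with the version not given in the sources used here. That the deposited values are log2 was judged from their range over 35556 probes. Quantile normalisation forces like distributions on the arrays, so a shift of all transcripts cannot be seen, and the number of arrays limits the precision.

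Probes of a gene were averaged (5 members have several probes, which differ most for Psma5), and probes listing several genes were left out. Symbols of all 48 members matched RefSeq by Entrez ID. Paralogue and pseudogene transcripts can bind the same probes. Differences were taken per gene in 6 comparisons with Python 3.11.15, numpy 2.4.6 and pandas 2.3.3, and counted at 1.5-fold and 1.2-fold over all kept genes. The counting was tested on simulated data.

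The members, gene lists and comparisons were chosen with earlier results of these data known. Every member could be named. Named always were the catalytic, activator and inhibitor genes, the 2 highest and 2 lowest members of each comparison, list genes past 1.5-fold and 12 listed pathway genes; further list genes were chosen after their values were seen. The alternatives were 2 other scalings, 3 other filters, a floor, and the brightest probe.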

Additional observations from a re-analysis of the deposited data

How the results depend on the processing

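With no replicates, a median was taken as stable when it moved by at most 0.05 log2 and a count when it stayed within 1.5 times. Of 252 values of the main comparisons under 7 alternatives, 242 were stable and 10 were not, and all 10 came from the 2 scalings. The filters, the floor and the choice of probe leave most members' values as they are, so they could hardly move these results. Under each scaling 5 values moved and 31 did not. Repeating quantile normalisation gave 2 members at least 1.2-fold lower with palmitic acid than in the control (Psmb10 and Psmg4) where the deposited values gave 1. It gave 1 member lower with linoleic acid than in the control (Psmg1) where the deposited values gave 0, and 1 member higher for palmitic minus linoleic acid where they gave 2. It also took the non-ATPase median for palmitic minus oleic acid to 0.14, against 0.19. Centring each array gave 6 members higher for palmitic minus linoleic acid. The number at least 1.2-fold higher with linoleic acid than in the control was 0 under both scalings, where the deposited values gave 1 (Psmb9). For linoleic minus oleic acid, centring took the median over all members to -0.012 (0.04 as deposited), over the non-ATPase genes to 0.0017 (0.06) and over Psmb8, Psmb9 and Psmb10 to -0.034 (0.02). The cause was not tested. Over the 7 alternatives Psmb10 stayed between -0.56 and -0.53 with palmitic acid against the control, Psmd11 between 0.39 and 0.45, Psmd1 between 0.29 and 0.30, and the non-ATPase median between 0.11 and 0.16. Psmb10, Psmd11 and Psmd1 are bright and have 1 probe each, so only the 2 scalings could move their values. No paired analysis was possible because each group has 1 array.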
